A study of Mus musculus with 24 samples.

Results

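Drug-metabolizing enzymes of the distal small intestine were described across 4 groups of mice that differed in diet and metformin treatment. The set was defined by name: protein-coding genes of the cytochrome P450 families 1 to 3 (Cyp), the UDP-glucuronosyltransferase families 1 and 2 (Ugt), the sulfotransferases (Sult) and the cytosolic, mitochondrial and peroxisomal glutathione S-transferases (Gst), each with at least 3 read counts in at least 6 libraries. Of the 55536 genes in the table, 122 protein-coding genes carried such a name and 69 passed the count filter. The rule uses names and counts and no measured difference between groups, but it was chosen with earlier results of these data known.

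Each library came from total RNA of the distal small intestine (ileum) of a different C57BL/6N mouse, an inbred strain, and 24 mice were used. The control diet (CD) supplied 10% and the high-fat diet (HFD) 60% of energy as fat, starting when the mice were 4 to 5 weeks old. After 20 weeks, metformin, a glucose-lowering drug, was added to the drinking water of CDmetf and HFDmetf mice at 50 mg/kg/day for 10 weeks, while the CD and HFD groups received none. Each group held 3 females (F1 to F3) and 3 males (M1 to M3), and each animal came from a different cage of 3. All groups are of the same strain, and the HFD groups model obesity through diet alone.

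Oxidation by P450 enzymes in the endoplasmic reticulum adds or exposes a polar group on drugs, dietary compounds and steroids. Ugt, Sult and Gst enzymes then attach glucuronic acid, sulfate or glutathione, after which transporters export the conjugates. In the small intestine these enzymes are made mainly by enterocytes and form a first barrier to swallowed compounds. Many of their genes are controlled by ligand-activated receptors such as PXR (Nr1i2), CAR (Nr1i3) and the aryl hydrocarbon receptor (Ahr), and many are known to decline from the proximal to the distal small intestine. Metformin itself is not metabolized by these enzymes and leaves the body unchanged.

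The libraries held 1829690 to 40606442 reads counted on genes (median 3467310), so that 3 counts corresponded to between 0.0717 and 1.63 CPM, the read count scaled to the normalized library size, in which levels are given. The median depth was 10387000 reads in CD and between 3145280 and 3966410 in the other groups. In CD M3, the 10 most abundant genes took 85.4% of the counts, against at most 36.6% elsewhere. The sex-linked transcripts of the libraries labelled HFD F2 and HFD M2 went against their labels; both are therefore named here by label only, and each comparison was repeated without them. The proximal marker Gata4 ranged from 0.291 CPM in CDmetf M2 to 116 CPM in HFD M3, a library in which the ileal bile acid-binding protein gene Fabp6 was at 0.8 CPM. The pieces of tissue therefore differed in their regional markers within as well as between groups. The colon marker Car1 was at 11.6 CPM in CDmetf M2 and at 8.99 CPM in HFDmetf M1. Epithelial markers were abundant in every library with a summed level of 6910 to 15228 CPM over 10 genes. Among the 5 liver markers the sum was 1.25 to 8.55 CPM, and the defining liver gene Alb was at 0 in 13 of 24 libraries.

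Of the 12 families or classes into which the 69 genes were grouped, Cyp2 held the most members. It had 21 members of 48 matching names, followed by 7 of 9 for Ugt1, 7 of 7 for Gstm, 6 of 10 for Ugt2 and 5 of 9 for Cyp3. The other classes were Cyp1 (1 of 3), Gsta (3 of 4), Gstp (3 of 3), Gstt (3 of 4), the remaining Gst genes (4 of 4), Sult1 (4 of 6) and the remaining Sult genes (5 of 15). The 3-count filter fell between Cyp2d10, which reached it in 7 libraries, and Cyp2j11, which reached it in 5. Cyp2c29, Cyp2j5 and Gsta2 reached it in 4. Of the 53 genes outside, 39 had 3 counts in no library. A further filter on low counts applied to all genes left 48 members for the tests; the 21 others, among them Ugt1a2, Ugt1a5, Ugt1a9, Cyp2w1, Cyp3a44 and Gsto2, have levels but no test in the comparisons of diet and metformin.

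Cyp2 enzymes took 28.2% ± 3.93 (SD, n = 24) of the summed CPM of all members, Ugt2 enzymes 19.1% ± 3.58, Cyp3 12.5% ± 4.57, Sult1 12.2% ± 2.56, and the remaining Gst genes, chiefly Gsto1, 11.5% ± 2.55. Each of the other classes took 3.52% or less. These shares are sums of CPM and are not corrected for transcript length. Of the exon bases of the Ugt1 members, 50.3% to 60.6% also lie in another gene on the same strand. Reads there were not credited to every Ugt1 gene, so the Ugt1 share and its levels per kilobase may be too low. The Cyp3 share varied from 5.01% to 21.1% between libraries, whereas the Cyp2 share stayed between 22.2% and 35.4%. Compared per kilobase of transcript, the highest member was Gsto1, an omega-class transferase that acts as a thiol reductase, at 122 ± 30.3 CPM per kb (SD, n = 24). It was followed by Cyp2d26 at 106 ± 57.0, Ugt2b34 at 104 ± 49.1 and Cyp3a13 at 91.2 ± 56.7 CPM per kb. Next came Sult1d1, a sulfotransferase of catecholamines and other phenols, at 65.3 ± 37.3, and Sult1b1, a thyroid hormone sulfotransferase, at 60.9 ± 29.3. None of these neighbours in the order differed by more than the spread: Gsto1 exceeded Cyp2d26 in 18 of 24 libraries, Cyp2d26 exceeded Ugt2b34 in 11, and Ugt2b34 exceeded Cyp3a13 in 16.

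**Figure D1:**
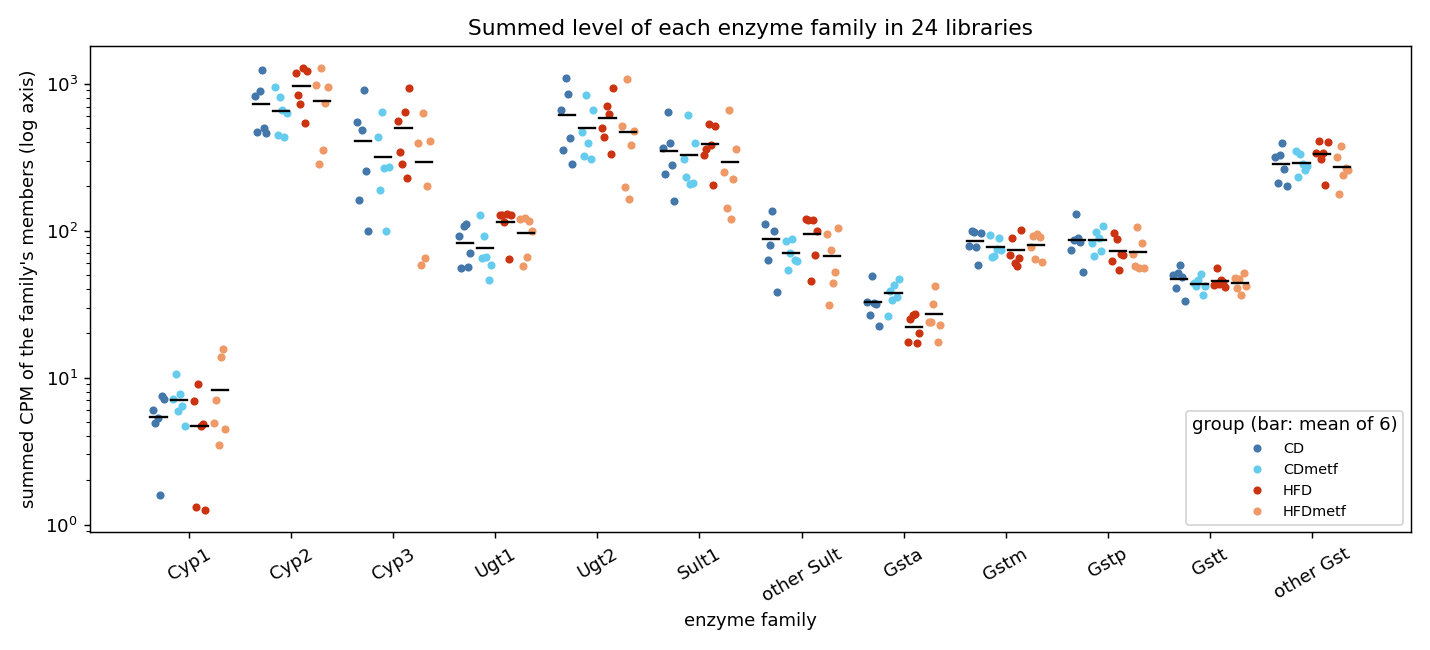
Summed CPM of the members of each enzyme class on a log axis, by group. Each point is 1 library and each bar the mean of 6; the Cyp2 and Ugt2 sums are high in all groups, the Cyp3 sum spreads widely within each group, and the groups overlap in every class.

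Summed over all members, the level was 2809 ± 1162 CPM (SD, n = 6) in CD, 2486 ± 756 in CDmetf, 3199 ± 881 in HFD and 2492 ± 1223 in HFDmetf. The spread within each group exceeded the distances between the group means. The Cyp3 sum was 409 ± 301 CPM in CD, 316 ± 194 in CDmetf, 498 ± 269 in HFD and 294 ± 226 in HFDmetf. The Ugt1 sum was 82.3 ± 25.1, 75.8 ± 29.0, 115 ± 25.9 and 96.9 ± 28.4 CPM in the same order, and the Gsta sum 32.5 ± 9.22, 37.4 ± 7.29, 22.2 ± 4.58 and 27.0 ± 8.63 CPM. In the Ugt1 sum both HFD group means were thus the higher ones, and in the Gsta sum both were the lower ones.

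Among the members with a mean of at least 5 CPM, Ugt2a3, Cyp2b10, Cyp2c66, Cyp2e1 and Cyp3a11 varied most between animals of a group. Cyp3a11 is the mouse counterpart most often compared with human CYP3A4 and a PXR target, Cyp2b10 is the classic CAR target, Ugt2a3 is a glucuronosyltransferase of the intestine and liver, and Cyp2c66 belongs to the Cyp2c cluster. The DNA just upstream of these 4 genes is shown because their levels spread together over the libraries. It was taken from the RefSeq promoters of GRCm38.p6, without any base inside the annotated gene itself, and overlap with other genes was not checked. The stretches are chr5:87337196-87337445 (minus strand) for Ugt2a3, chr7:25897408-25897619 (plus) for Cyp2b10, chr5:145879965-145880104 (minus) for Cyp3a11 and chr19:39113648-39113897 (plus) for Cyp2c66. Capitals mark 6-base matches on either strand.
Ugt2a3: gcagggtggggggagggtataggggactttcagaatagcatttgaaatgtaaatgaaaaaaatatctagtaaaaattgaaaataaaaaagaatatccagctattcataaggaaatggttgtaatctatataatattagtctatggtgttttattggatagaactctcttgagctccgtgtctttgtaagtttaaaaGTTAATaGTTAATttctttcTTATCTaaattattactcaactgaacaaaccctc
Cyp2b10: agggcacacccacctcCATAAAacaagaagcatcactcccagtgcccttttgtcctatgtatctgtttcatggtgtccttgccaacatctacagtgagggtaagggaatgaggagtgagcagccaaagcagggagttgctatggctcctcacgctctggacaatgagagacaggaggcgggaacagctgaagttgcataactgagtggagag
Cyp3a11: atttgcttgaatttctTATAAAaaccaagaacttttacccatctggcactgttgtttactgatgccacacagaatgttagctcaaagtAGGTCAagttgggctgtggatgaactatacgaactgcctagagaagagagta
Cyp2c66: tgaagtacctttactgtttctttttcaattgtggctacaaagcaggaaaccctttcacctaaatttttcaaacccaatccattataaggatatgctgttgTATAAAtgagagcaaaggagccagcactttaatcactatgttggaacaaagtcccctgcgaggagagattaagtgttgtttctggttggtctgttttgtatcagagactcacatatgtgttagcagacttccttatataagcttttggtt

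The motifs searched on both strands were AGATAA and, likewise read by GATA factors, TGATAA. The search also took GTTAAT as an HNF1 half-site, AGGTCA as a nuclear receptor half-site, TTTATG as a CDX site and TATAAA as the core promoter box of that name. The motifs were chosen after the levels had been seen. Positions count back from the RefSeq transcription start. Ugt2a3 held GTTAAT at -54 and -47 and AGATAA on the opposite strand at -34. Of 32851 RefSeq promoters cut to the same 250 bases, 6.43% held GTTAAT and 9.99% held AGATAA. Cyp2b10 held TTTATG on the opposite strand at -234, a motif in 9.24% of windows of its length. Cyp3a11 held TATAAA at -234 (6.89% of windows of its length) and AGGTCA at -162 (7.99%), and Cyp2c66 held TATAAA at -150 (12.4%). The 170-base window of Cyp2e1, the fifth variable enzyme, held none of the motifs and is not printed. These matches describe letters in the windows and not binding.

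Cyp3a11 (chr5:145854426-145879964 in GRCm38, minus strand) was at 58.0 CPM in CD F1, 3.27 in F2, 43.2 in F3, 159.7 in M1, 7.79 in M2 and 5.81 in M3. In CDmetf it was at 27.3, 4.73, 97.3, 1.03, 1.74 and 6.15 CPM in the same order of animals, in HFD at 78.2, 38.3, 31.02, 112, 10.0 and 99.0 CPM, and in HFDmetf at 33.1, 2.72, 54.0, 1.07, 8.70 and 34.2 CPM. Each group thus held animals with high and animals with low Cyp3a11, and all groups overlapped. Cyp2b10 (chr7:25897620-25926624, plus strand) was at 32.7, 0, 35.4, 101, 0.519 and 4.19 CPM in CD, and at 30.8, 0, 12.7, 1.03, 0 and 0.897 CPM in CDmetf. In HFD it was at 65.4, 14.97, 9.18, 89.2, 0.972 and 78.9 CPM, and in HFDmetf at 61.5, 1.09, 38.3, 0.152, 9.30 and 11.3 CPM. The animals low in Cyp3a11 were largely those low in Cyp2b10, among them CD F2, CD M2, CDmetf M2 and HFDmetf M1.

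Ugt2a3 (chr5:87324972-87337195, minus strand) had a similar on-and-off distribution, with a lowest, median and highest level of 0.519, 53.4 and 138 CPM in CD, 0.0961, 0.885 and 83.0 in CDmetf, 6.80, 59.4 and 147 in HFD, and 0.152, 35.8 and 107 in HFDmetf. Cyp2c66 (chr19:39113898-39187072, plus strand) was at 1.304, 0.327, 3.38, 8.45, 0 and 1.86 CPM in CD F1 to F3 and M1 to M3, and at 8.76, 0.592, 4.33, 0.514, 0 and 0.192 CPM in CDmetf. In HFD it was at 11.1, 9.25, 8.70, 11.7, 0 and 23.4 CPM, and in HFDmetf at 5.90, 1.09, 8.81, 3.81, 15.6 and 6.75 CPM. All HFD animals other than the library labelled HFD M2 lay above the highest CD animal, but the CDmetf and HFDmetf ranges overlapped. Cyp2e1, which oxidizes ethanol and fatty acids, reached 49.9 CPM in CDmetf M1 and 58.2 in CDmetf M2, 25.9 in CD F2 and 10.9 in CD M3, and was at 6.54 CPM or less in every other library. Gsta1, an alpha-class transferase induced through Nrf2, was low throughout, with medians of 4.48 CPM in CD, 5.51 in CDmetf, 4.51 in HFD and 3.82 in HFDmetf. Of the 100-base windows of its transcripts, 80.6% also occur in Gsta2, Gm3776 or Gm10639, so its counts are uncertain.

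**Figure D2:**
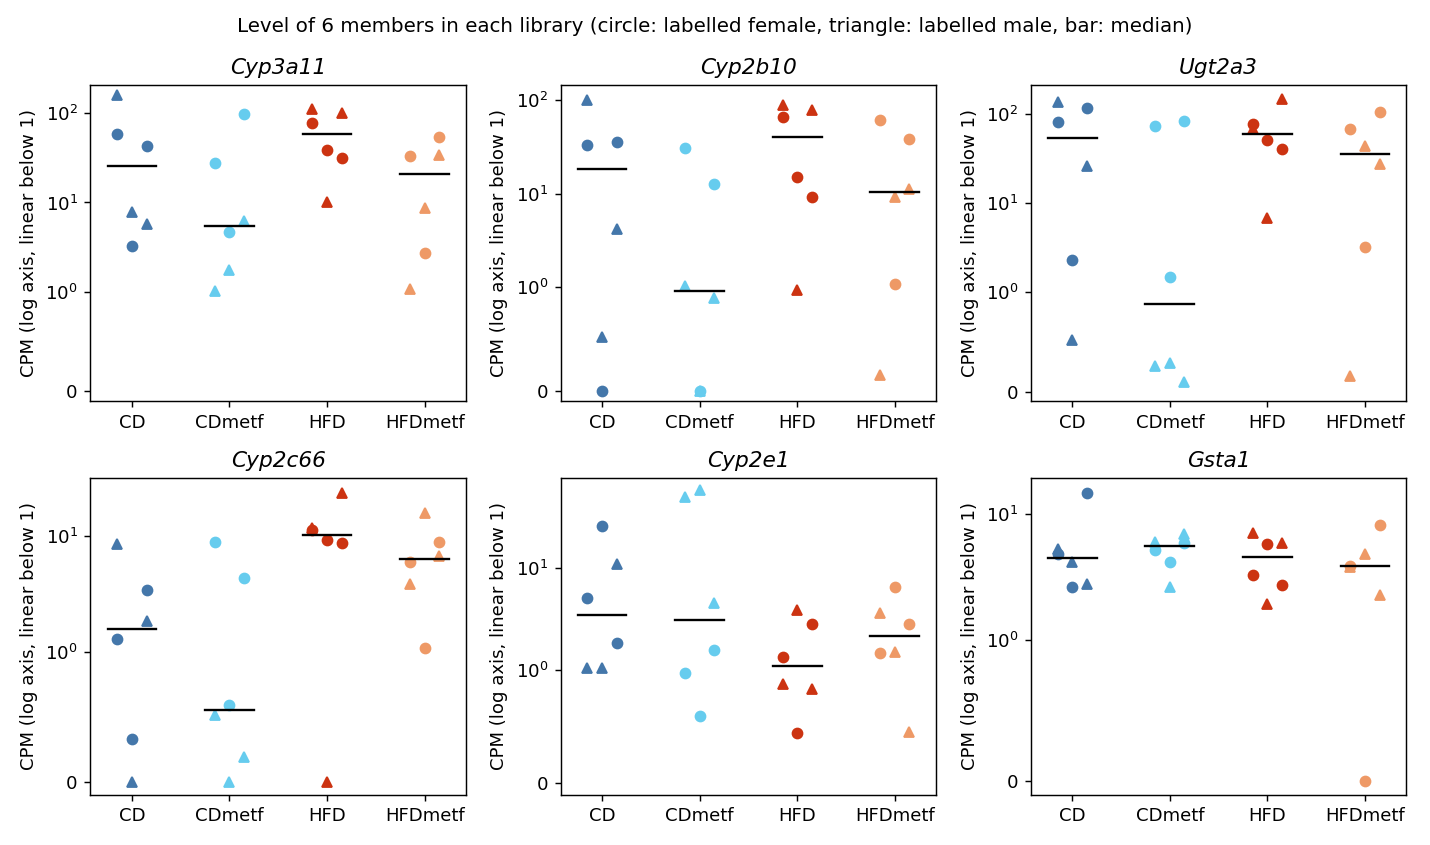
CPM of Cyp3a11, Cyp2b10, Ugt2a3, Cyp2c66, Cyp2e1 and Gsta1 in each library, by group, on an axis that is linear below 1 CPM and logarithmic above. Circles are libraries labelled female, triangles libraries labelled male, and the bar is the group median; for example, Ugt2a3 in CDmetf runs from 0.0961 to 83.0 CPM.

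Across the 24 libraries, the 4 variable enzymes followed a marker score of proximal minus distal small intestine, the mean z-score of log2 CPM over proximal genes (Gata4, Onecut2, Lct, Fabp1, Slc40a1) less that over distal genes (Fabp6, Slc10a2, Slc51a, Slc51b, Clca4b, Cubn). For Cyp2c66, Pearson's r was 0.824 and Spearman's rho 0.797 (adjusted permutation p of r = 0.00024, over 24 relations). For Ugt2a3, r was 0.706 and rho 0.626 (adjusted permutation p = 0.00048), and for Cyp2b10 r was 0.659 and rho 0.661 (adjusted permutation p = 0.00158). Cyp3a11 had an r of 0.500 and a rho of 0.449 (adjusted permutation p = 0.0246). Without the 2 libraries farthest from the median score, r was 0.796, 0.692, 0.622 and 0.447, and around the group means it was 0.769, 0.688, 0.618 and 0.478, so the relation held within groups. Cyp2e1, the fifth variable enzyme, had an r of -0.432 with this score (adjusted permutation p = 0.0631). Its r was -0.535 without the 2 farthest libraries and -0.319 around the group means. For the marker Gsta1, r was -0.0125 (adjusted permutation p = 0.952). The members were chosen for their variation, and the libraries share the tissue piece from which all these genes were read. The score did not order every library as its main markers do. HFDmetf F2 scored 0.707 with Gata4 at 1.63 CPM and Fabp6 at 1164 CPM. HFD F1 scored 0.324 with Gata4 at 78.9 CPM and Fabp6 at 322 CPM. The score is thus an incomplete measure of gut region, here and as a covariate.

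The same enzymes ran against the smooth muscle score (Acta2, Myh11, Tagln, Des, Cnn1, Actg2), a measure of muscle wall in the piece. For Cyp2b10, r was -0.718 and rho -0.741 (adjusted permutation p = 0.00036), and for Cyp3a11 r was -0.702 and rho -0.700 (adjusted permutation p = 0.00096). For Ugt2a3 and Cyp2c66, r was -0.625 and -0.613 and rho -0.690 and -0.607 (adjusted permutation p = 0.00404 and 0.00442). Without the 2 farthest libraries, r was -0.658, -0.648, -0.549 and -0.481 for Cyp2b10, Cyp3a11, Ugt2a3 and Cyp2c66, and around the group means -0.729, -0.683, -0.640 and -0.665. Cyp2e1 ran the other way, with an r of 0.532 with the smooth muscle score (adjusted permutation p = 0.0171; 0.310 without the 2 farthest libraries), and it followed the adipocyte score (Adipoq, Plin1, Cfd, Lep), with r = 0.587 and rho = 0.615 (adjusted permutation p = 0.00693; r = 0.661 without the 2 farthest libraries and 0.620 around the group means). Cyp3a11 ran against the adipocyte score, with r = -0.556 and rho = -0.562 (adjusted permutation p = 0.0138; r = -0.534 without the 2 farthest libraries and -0.577 around the group means). For Gsta1, an r of 0.597 with the epithelial score dropped to 0.158 without the 2 farthest libraries and rests on them. In bulk tissue, fewer cells of a type and less RNA per cell cannot be told apart.

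**Figure D3:**
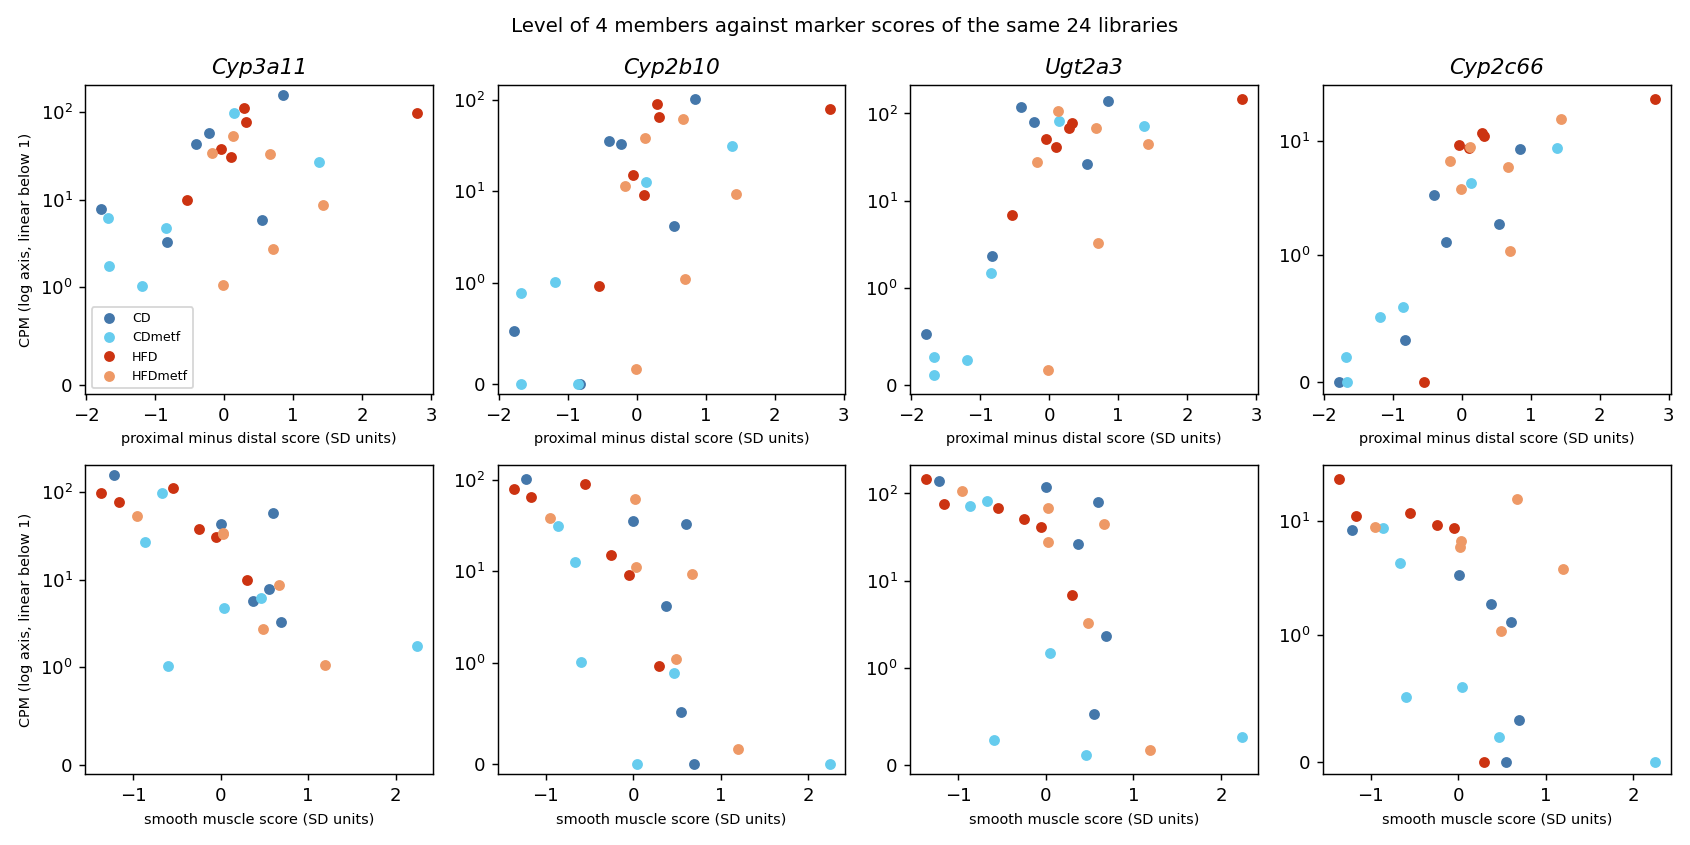
CPM of Cyp3a11, Cyp2b10, Ugt2a3 and Cyp2c66 against the proximal-minus-distal score (top row) and the smooth muscle score (bottom row), 1 point per library. The x axis is in SD units, and the y axis is linear below 1 CPM and logarithmic above. Levels go up with the first score (r of log2 CPM from 0.500 to 0.824) and down with the second (r from -0.718 to -0.613).

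As a description over enzyme classes, the log2 of the summed level of the Cyp3, Cyp2, Ugt1 and Ugt2 members had an r of -0.774, -0.750, -0.710 and -0.611 with the smooth muscle score over the 24 libraries. For the sulfotransferases r was -0.602 and for the glutathione transferases -0.536, while Cyp1b1, the only Cyp1 member and a target of the aryl hydrocarbon receptor, had an r of 0.491. With the proximal-minus-distal score, r was 0.687 for Ugt1 and 0.441 for Cyp2, but 0.331 for Cyp3, 0.246 for the glutathione transferases, 0.202 for Ugt2, 0.132 for the sulfotransferases and -0.241 for Cyp1b1. The genes most like each marker over the 24 libraries, among 13505 tested, were Slc25a45 (r = 0.953), Fbln1 (0.952) and Cldn15 (0.950) for Cyp3a11, and Gm35570 (0.960), Ms4a10 (0.955) and Tbc1d24 (0.952) for Cyp2b10. For Gsta1 they were Nqo1 (0.839), Uprt (0.834) and Nat2 (0.817).

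The effect of the high-fat diet was examined without metformin (HFD vs CD), with metformin (HFDmetf vs CDmetf) and averaged over both. No member passed an adjusted p of 0.05 in any of these comparisons, nor did any other gene (0% of 13505), by the quasi-likelihood F test of edgeR, adjusted after Benjamini and Hochberg. At an unadjusted p under 0.05 there were 6 of 48 members in HFD vs CD (3 higher, 3 lower; 4.75% of all genes), 7 in HFDmetf vs CDmetf (4 higher, 3 lower; 7.55%) and 12 in the averaged comparison (8 higher, 4 lower; 5.95%). DESeq2 and limma-voom also called 0 members. The median log2 fold change over members was 0.064 in HFD vs CD, 0.047 in HFDmetf vs CDmetf and 0.065 averaged, against 0.0089, 0.025 and 0.013 over all genes.

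The members with the smallest p in the averaged diet comparison came from the Gsta, Cyp2, Gstp and Ugt1 classes. Gsta4, which conjugates the lipid peroxidation product 4-hydroxynonenal, had a log2 fold change of -0.56 ± 0.165 (SE; edgeR adjusted p = 0.404), and was lower on HFD in 11 of 12 pairs of libraries with the same sex label, number and treatment. Its lowest, median and highest levels were 15.8, 21.5 and 31.3 CPM in CD against 10.9, 14.5 and 22.03 in HFD, and 18.5, 27.4 and 32.2 in CDmetf against 9.90, 17.1 and 31.2 in HFDmetf. The medians were lower on HFD in both arms while the ranges overlapped. Cyp2c66 had a log2 fold change of 1.97 ± 0.615 (edgeR adjusted p = 0.481), higher in 10 of 12 pairs. Gstp3 had 0.57 ± 0.191 (edgeR adjusted p = 0.565), higher in 9 of 12 pairs, whereas Gstp1 and Gstp2, pi-class copies that share much sequence, had -0.30 ± 0.129 and -0.50 ± 0.201.

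All 3 tested Ugt1 members had a positive log2 fold change with an unadjusted p under 0.05 in the averaged diet comparison: Ugt1a7c at 0.42 ± 0.140, Ugt1a1, the bilirubin transferase, at 0.54 ± 0.206 and Ugt1a6a at 0.69 ± 0.321 (edgeR adjusted p = 0.573, 0.675 and 0.822). Ugt1a7c was at a median of 53.3 CPM in CD and 79.3 in HFD, and of 47.97 in CDmetf and 67.9 in HFDmetf, higher in 10 of 12 pairs. The Ugt1a genes share their last exons, and 50.4% to 57.2% of the 100-base windows of these 3 occur in another gene. Ugt1a9, with 59.9% of its exon bases shared, was at 0 in 11 libraries. Reads of the shared exons were thus not credited to every Ugt1a gene, and the sources used here do not say how they were counted. The 3 genes overlap at 1 locus and are not taken as 3 separate observations. In the Ugt2 class, by comparison, 2 of 5 tested members were higher and the median was -0.0011. Cyp2j6, an abundant intestinal epoxygenase of fatty acids, had 0.69 ± 0.271, with medians of 166 CPM in CD, 285 in HFD, 126 in CDmetf and 211 in HFDmetf. In the Cyp2 class 10 of 12 tested members were higher, with a median of 0.27, and in the Gsta class 0 of 3, with a median of -0.41.

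For the markers, the HFD vs CD log2 fold change was 0.63 ± 0.810 for Cyp3a11, 1.01 ± 0.906 for Cyp2b10 and -0.44 ± 0.443 for Gsta1 (edgeR adjusted p = 0.999 for each), so the errors were as large as or near the differences. With single libraries left out, Cyp3a11 ran from 0.32 (without CD M3) to 1.88 (without CD M1) and Cyp2b10 from 0.35 (without HFD M3) to 2.22 (without CD M1). With metformin (HFDmetf vs CDmetf) the values were 0.21 ± 0.855, 2.02 ± 1.02 and -0.31 ± 0.436 (edgeR adjusted p = 0.963, 0.666 and 0.874). In HFD vs CD the smallest p belonged to Ugt1a7c (0.53 ± 0.197), Gsta4 (-0.58 ± 0.234), Gstp3 (0.65 ± 0.267) and Cyp2c66 (1.99 ± 0.835), all with an edgeR adjusted p of 0.995. In HFDmetf vs CDmetf they belonged to Cyp2j9 (0.84 ± 0.283), Ugt1a6a (1.10 ± 0.460), Gsta4 (-0.55 ± 0.233) and Cyp2e1 (-2.23 ± 1.02; edgeR adjusted p = 0.561 to 0.657). Without CDmetf M1, the Cyp2e1 value was -1.15. Its level was high in CDmetf M1 (49.9 CPM) and CDmetf M2 (58.2 CPM), while the medians were 3.08 CPM in CDmetf and 2.16 in HFDmetf. Of 6 pairs, 3 were higher and 3 lower in HFDmetf. Without HFD F2 and HFD M2, 10 of 52 members tested had an unadjusted p under 0.05 in the averaged diet comparison (5.88% of all genes), and Gsta4, Cyp2c66 and Ugt1a7c had log2 fold changes of -0.58, 1.97 and 0.39. Over single libraries left out, CD M3 and HFD M3 included, Gsta4 stayed between -0.72 and -0.50 and Cyp2c66 between 1.70 and 2.46.

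The proximal markers differed with diet beside these enzymes, without passing the adjusted threshold. Their summed level had a median of 1244 CPM in CD and 1784 in HFD, and of 86.4 in CDmetf and 1211 in HFDmetf, with ranges that overlapped, and their 5 log2 fold changes had a median of 1.10 in HFD vs CD, 5 of 5 higher. With the proximal-minus-distal score as a covariate, 2 members rather than 12 had an unadjusted p under 0.05 in the averaged diet comparison (2.95% rather than 5.95% of all genes), the log2 fold change of Cyp2c66 was 1.32 and that of Gsta4 -0.31. With the smooth muscle score, chosen as a covariate after seeing the data, it was 9 members (5.99% of all genes), and the values were 1.99 and -0.53. In HFD vs CD the smooth muscle markers had a median of -0.31 with 0 of 5 higher, and with that score as a covariate the Cyp3a11 and Cyp2b10 values were -0.07 and -0.26 in place of 0.63 and 1.01.

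The effect of metformin was examined on each diet and averaged over both; these comparisons use the same libraries as the diet comparisons. Again 0 members and 0% of all genes passed an adjusted p of 0.05 by edgeR's test. At an unadjusted p under 0.05 there were 2 of 48 members in HFDmetf vs HFD (1 higher, 1 lower; 6.87% of all genes), 1 in CDmetf vs CD (lower; 5.00%) and 5 averaged over diets (1 higher, 4 lower; 5.25%). More members had a negative than a positive value: 32 of 48 in HFDmetf vs HFD, 34 of 48 in CDmetf vs CD and 33 of 48 averaged. The member medians were -0.207, -0.205 and -0.196 on the log2 scale, against -0.0088, -0.016 and -0.014 over all genes. The members vary together between libraries, so these are not counts of independent genes.

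**Figure D4:**
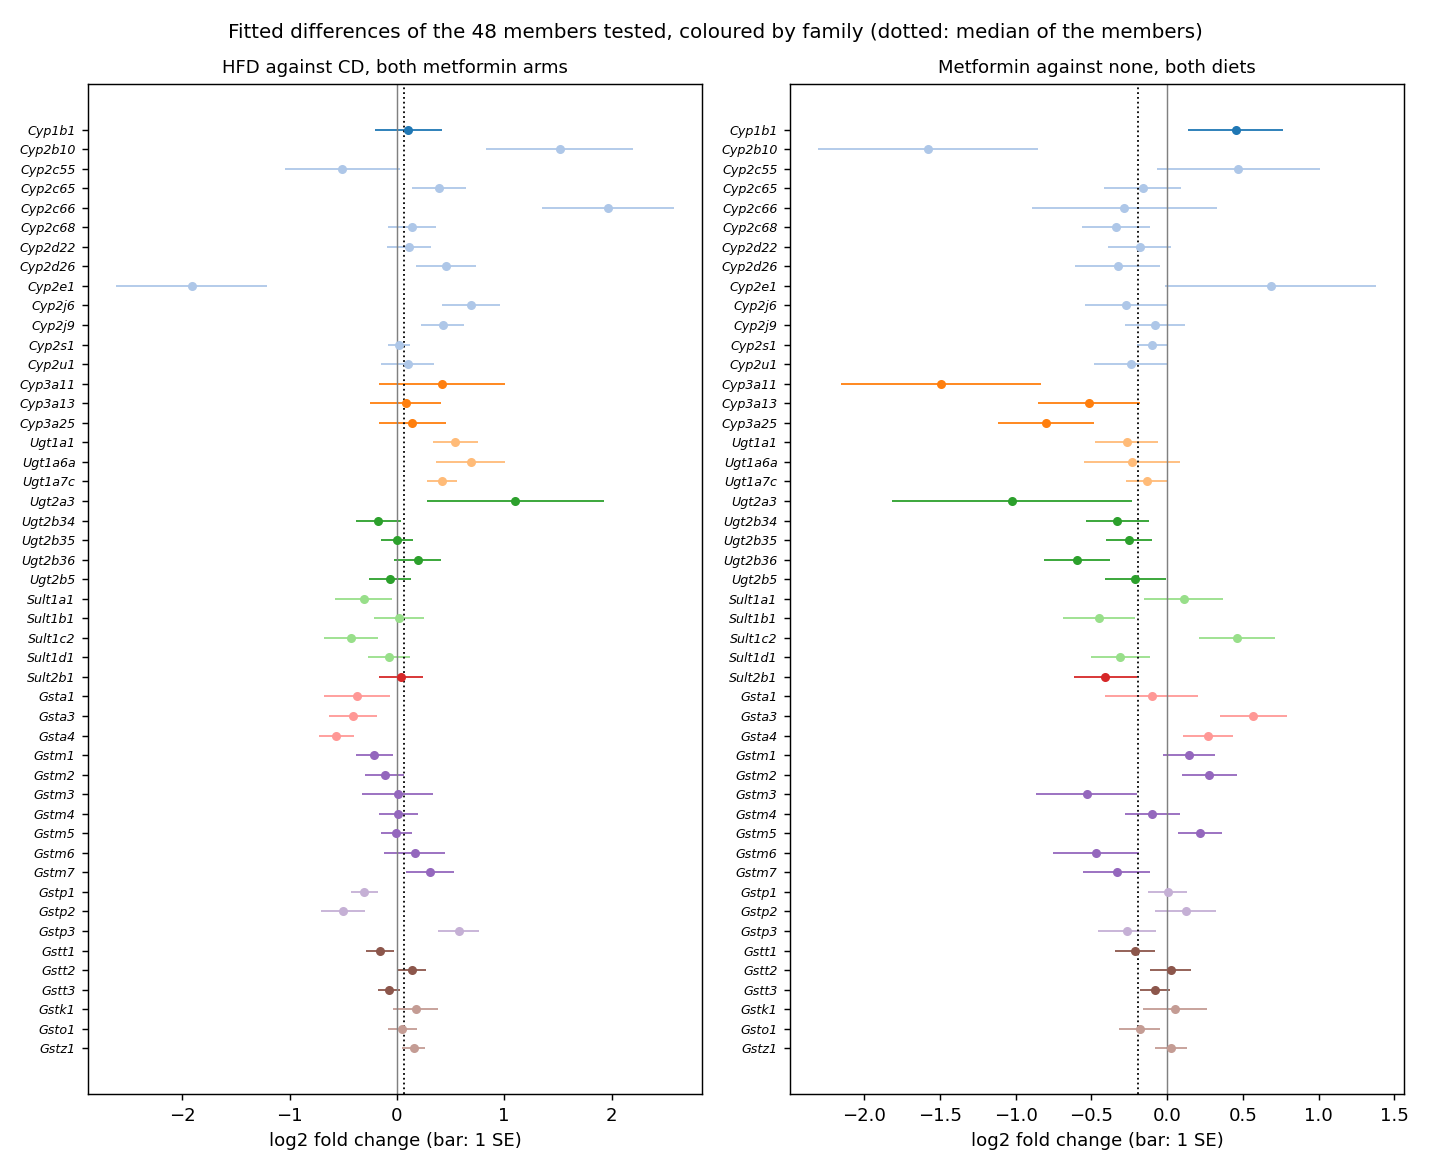
Log2 fold change of each of the 48 tested members with its SE. The left panel is HFD vs CD averaged over metformin, and the right panel is metformin vs none averaged over diet. The dotted line in each panel is the member median, which lies near 0 for diet and at about -0.2 for metformin. No member passed the adjusted threshold.

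The Cyp3 class lay lowest with metformin, with a median of -0.80 averaged over diets and 0 of 3 tested members higher. Cyp3a25 (chr5:145977194-146009618, minus strand) had -0.80 ± 0.318 and Cyp3a11 -1.49 ± 0.662 (edgeR adjusted p = 0.770 for both), lower in 9 and 8 of 12 pairs. Cyp3a25 had medians of 68.6 CPM in CD and 47.9 in CDmetf, and of 87.0 in HFD and 54.9 in HFDmetf. Cyp3a13, the most abundant Cyp3 enzyme here, had medians of 256 and 216 CPM, and of 296 and 223. For each of these enzymes the medians were lower with metformin on both diets, and all ranges overlapped. The pairs were less even: for Cyp3a11 and for Cyp3a13, 3 of 6 were lower on the control diet and 5 of 6 on the high-fat diet. For Cyp3a25, 5 of 6 and 4 of 6 were lower. Cyp2b10 had -1.58 ± 0.727 (edgeR adjusted p = 0.770), lower in 9 of 12 pairs, from a median of 18.4 CPM in CD to 0.962 in CDmetf and of 40.2 in HFD to 10.3 in HFDmetf. Without HFD F2 and HFD M2 the Cyp3a11 value was -1.24, and over single libraries left out it ran from -1.88 to -1.14.

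In the conjugating classes, 0 of 5 tested Ugt2 members and 0 of 3 Ugt1 members had a positive metformin value, with medians of -0.33 and -0.23. Ugt2b36 had -0.60 ± 0.218 (edgeR adjusted p = 0.770), lower in 10 of 12 pairs, with medians of 11.0 CPM in CD, 7.39 in CDmetf, 11.2 in HFD and 6.80 in HFDmetf. In the other direction, Gsta3 had 0.57 ± 0.221 (edgeR adjusted p = 0.770), higher in 9 of 12 pairs, with medians of 4.31, 5.79, 3.12 and 5.07 CPM. The Sult1 class was split, with 2 of 4 higher and a median of -0.10, and so were the Gstm class (3 of 7, -0.098) and the Gstp class (2 of 3, 0.0036).

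On the high-fat diet (HFDmetf vs HFD), Gsta3 had 0.82 ± 0.321, Cyp3a25 -0.97 ± 0.446, Gstm1 0.50 ± 0.247, Sult1d1 -0.56 ± 0.278 and Cyp3a11 -1.71 ± 0.865, all with an edgeR adjusted p of 0.620. Over the alternatives other than single libraries left out, the Cyp3a11 value here ran from -2.19 to -0.75 and that of Cyp3a25 from -1.19 to -0.42. On the control diet (CDmetf vs CD), Ugt2b36 had -0.70 ± 0.305, Cyp2b10 -2.09 ± 1.00, Cyp2c55 1.295 ± 0.736 and Cyp2j9 -0.50 ± 0.283 (edgeR adjusted p = 0.963 for each), and Cyp3a11 -1.28 ± 0.926 (edgeR adjusted p = 0.970). With single libraries left out, the Cyp3a11 value ran from -2.29 (without CDmetf F3) to -0.41 (without CD M1), and the Cyp2b10 value from -2.63 (without CDmetf F1) to -1.19 (without CD M1). The Cyp2b10 value in HFDmetf vs HFD was -1.07 ± 0.990 (edgeR adjusted p = 0.705); it ran from -1.99 (without HFDmetf M2) to -0.37 (without HFD M3) and was 0.23 with the smooth muscle score as a covariate. For Gsta1 the values were -0.04 ± 0.458 and -0.17 ± 0.422, below their errors on both diets.

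Smooth muscle markers had higher values with metformin on the high-fat diet, again without passing the adjusted threshold. Their summed level had a median of 1297 CPM in HFD and 1766 in HFDmetf, and of 2020 in CD and 1635 in CDmetf, with overlapping ranges, and their log2 fold changes had a median of 0.41 in HFDmetf vs HFD, with 5 of 5 tested genes higher. The proximal markers had a median of -0.65 in the same comparison and of -0.51 averaged over diets, with 4 of 5 lower in both, but of 0.58 in CDmetf vs CD, with 3 of 5 higher. Their summed level went the other way there, with a median of 1244 CPM in CD and 86.4 in CDmetf and overlapping ranges. The median levels of Gata4, Lct and Fabp1 were lower in CDmetf than in CD, and those of Onecut2 and Slc40a1 higher. With the smooth muscle score as a covariate, the distance of the member median from that of all genes was 0.0446 in place of -0.198 in HFDmetf vs HFD, and -0.0629 in place of -0.182 averaged over diets, but -0.196 in place of -0.189 in CDmetf vs CD. The Cyp3a11 value averaged over diets was -1.08 with the smooth muscle score, -1.33 with the epithelial score, -1.40 with the proximal-minus-distal score and -1.38 with the adipocyte score, in place of -1.49. The 4 B-cell markers each had an unadjusted p under 0.05 in every one of the 4 comparisons between groups, with medians of 1.98 in HFD vs CD and 2.41 in CDmetf vs CD but -2.49 in HFDmetf vs CDmetf and -2.18 in HFDmetf vs HFD; their part in the values of the enzymes was not tested. The adipocyte markers had a median of -1.88 in CDmetf vs CD (4 of 4 lower) and 1.49 in HFDmetf vs HFD (4 of 4 higher), and for diet of -2.65 in HFD vs CD and 1.07 in HFDmetf vs CDmetf.

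Whether the diet effect differed with metformin was tested by the interaction term, which passed the adjusted threshold for 0 members and 0% of genes in edgeR's test, with 1 member at an unadjusted p under 0.05 (5.76% of all genes). The smallest p belonged to Cyp2j9 (0.83), Gstm1 (0.70), Gstt2 (0.45) and Cyp2c55 (-1.65), all with an edgeR adjusted p of 0.816. The Cyp2c55 value ran from -2.91 (without HFDmetf M1) to -1.03 (without CDmetf M3). Cyp2j9 had medians of 5.99 CPM in CD, 4.54 in CDmetf, 5.70 in HFD and 7.04 in HFDmetf. Cyp2c55, a P450 enriched in the large intestine, had medians of 8.10, 18.1, 13.5 and 5.88 CPM, with a range of 7.46 to 83.0 in CDmetf and 0 to 35.96 in HFDmetf. The libraries with the colon marker Car1, CDmetf M2 and HFDmetf M1, were at 50.9 and 35.96 CPM of Cyp2c55. The highest level, 83.0 CPM, was in CDmetf M3, with Car1 at 0.256 CPM. Whether colon tissue bears on any Cyp2c55 comparison was not tested.

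Between animals labelled male and female, 0 members passed the adjusted threshold (0.00740% of all genes, 1 gene, did), and 3 of 48 had an unadjusted p under 0.05 (7.23% of all genes). Cyp2s1, an extrahepatic P450, had a male vs female log2 fold change of 0.25 ± 0.102, Ugt1a7c -0.34 ± 0.140, Cyp2c68 -0.51 ± 0.226 and Gstp2 -0.41 ± 0.205 (edgeR adjusted p = 0.661 to 0.681). Terms for a diet or metformin effect that differs between the sexes, fitted with 8 groups of 3 and 52 members tested, gave 0 members past the adjusted threshold, with 2 (2.43% of all genes) and 5 (3.71%) at an unadjusted p under 0.05. The smallest p of the sex by diet term were those of Ugt2a3 (4.26), Sult1a1 (-1.14), Cyp2c66 (2.30) and Cyp2e1 (-2.20), and of the sex by metformin term those of Cyp2c55 (2.74), Sult4a1 (1.61), Cyp2e1 (2.79) and Cyp3a11 (-2.50), with edgeR adjusted p of 1 and 0.9998. The labels of HFD F2 and HFD M2 go against sex-linked transcripts, which bears on all of these terms.

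The receptors, cofactor enzymes and transporters that work with these enzymes were counted from a list of 52 genes, 49 of them tested, and none passed the adjusted threshold in any comparison by edgeR's test. In the averaged diet comparison 7 of 49 had an unadjusted p under 0.05 (5.95% of all genes), 5 of them higher: the carboxylesterase Ces2a at 0.81, Por, the reductase that supplies electrons to P450 enzymes, at 0.59, the efflux pump Abcb1b at 0.42, Ppara at 0.36 and Mgst1 at 0.31. Abcg2 and Ces1f were lower at -0.42 and -0.37. In the averaged metformin comparison 38 of 49 had a negative value, with a median of -0.125, and 5 had an unadjusted p under 0.05 (5.25% of all genes). These were Abcc2, which exports conjugates into the gut lumen, at -0.63, Cyb5a, an electron donor of P450 enzymes, at -0.40, Mgst2 and Mgst3 at -0.30 each, and Ces2b at 1.08. The count of 38 of 49 describes direction only. The share of all genes with a negative value is not given here, and whether the 49 genes vary independently was not tested. Between single groups, 3 of 49 had an unadjusted p under 0.05 for diet without metformin (4.75% of all genes) and 5 for diet with it (7.55%), and 4 for metformin on the high-fat diet (6.87%) and 2 on the control diet (5.00%), counts near those shares.

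The other abundant members showed the same overlap of all groups. Ugt2b34 had medians of 457 CPM in CD, 359 in CDmetf, 443 in HFD and 356 in HFDmetf, and Sult1b1 of 172, 136, 189.7 and 141 CPM. Sult2b1, a cholesterol sulfotransferase, had 86.5, 63.5, 103 and 59.4 CPM, and Sult1d1 132, 119.5, 159 and 85.9 CPM. Gsto1 was steadier, at 246, 238, 285 and 210.3 CPM, and so was Cyp2s1, at 97.1, 87.8, 94.8 and 83.3 CPM. Gstm1, the main mu-class member, had 32.2, 32.6, 24.01 and 33.7 CPM, and Gstp1, the main pi-class member, 75.7, 73.0, 56.7 and 52.9 CPM. Cyp1b1 had 5.69, 6.77, 4.78 and 6.01 CPM. For none of the 48 tested members were the groups free of overlap in any of the 4 comparisons between groups, and this was rare over all genes too, at 0.0740% in HFD vs CD, 0.170% in HFDmetf vs CDmetf, 0.0444% in HFDmetf vs HFD and 0.170% in CDmetf vs CD.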

How the data were processed

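RNA of the distal small intestine was depleted of ribosomal RNA, made into directional libraries and sequenced on a DNBSEQ-G400RS. The authors trimmed reads with Trimmomatic 0.39 (window 5, quality 25, minimum length 30 bases), aligned them to GRCm38 with STAR 2.5.3a and deposited raw read counts per gene. The annotation release and counting strand are not given in the sources used here, so overlapping, antisense and near-identical genes are uncertain; the gene models used for lengths and coordinates are those of GENCODE on GRCm38. Rows that name no gene were left out. All 24 columns matched a sample label, and 0 other columns were present.

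Counts were analysed in R 4.3.3 with edgeR 4.0.16 (TMM, filterByExpr by group, quasi-likelihood F test) on all 24 libraries and 13505 genes, on a design of the group, the labelled sex and the replicate number (17 residual degrees of freedom), and with 8 groups, 14402 genes and 14 degrees of freedom for the sex terms. Adjustment was Benjamini-Hochberg over all genes tested, threshold 0.05. CPM used TMM library sizes, and log2 CPM a prior count of 1. Replicates are separate animals. The study's methods use limma-voom with sex and sequencing block; the labels do not say that the replicate number is that block. Only the edgeR fit of the group design was tested on simulated counts, for HFD vs CD and for averaged diet. Arithmetic used numpy 2.4.6, scipy 1.17.1 and pandas 2.3.3. The alternatives comprised the Wald test of DESeq2 1.42.0, voom from limma 3.58.1, RLE size factors, other filters, no sex term, no replicate block, 12 libraries only, marker scores as covariates, fits that drop HFD F2 and HFD M2, and leaving out each library; the adipocyte and smooth muscle covariates were chosen after seeing the data.

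The members, gene lists and tests were chosen with earlier results of these data known. Genes were named by rule: the 3 highest of each class, the 4 smallest unadjusted p of each comparison, the markers, the 5 most variable members with a mean of at least 5 CPM, the 3 genes most like each marker and the listed partners at an unadjusted p under 0.05; others, such as those used to describe a class, were named after their values were seen. The 24 correlations took the 5 variable members and the markers against 4 scores, with 100000 two-sided permutations. The adipocyte score was added after seeing the data, and relations of 4 further members picked by their contrasts were computed and dropped. Summed marker levels per list also gave, over all libraries, plasma cells (2 genes) 147 to 626.6 CPM, T cells (4 genes) 7.45 to 53.2, exocrine pancreas (6 genes) 0 to 36.1 and colon (2 genes) 0 to 11.6 CPM. Depth sets the floor given as 3 counts per library, which covers counting error only.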

Additional observations from a re-analysis of the deposited data

Results flagged for a closer look

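5 member and group combinations of the 164 examined held a library whose distance from the nearest of the other 5 on the log2 CPM scale (prior count 1), relative to the range of the group, passed Dixon's 95% critical value for 6 samples. Values are given here as CPM. Cyp1b1 was at 1.58 CPM in CD M1 against 4.91 to 7.53 in the other CD libraries. Ugt1a7c was at 47.6 CPM in HFD M2 against 76.2 to 91.6, and Cyp2c66 at 0 CPM in the same library against 8.70 to 23.4; its sex-linked transcripts also go against its label. Ugt1a6a was at 0.610 CPM in HFDmetf M1 against 3.81 to 7.08, and Sult4a1 at 0 CPM in HFD M3 against 0.880 to 1.34. In HFD M3, 3 counts correspond to 1.25 CPM, so the Sult4a1 levels of the other libraries lie near the floor of this one. By chance about 5% of such groups would pass, so 5 of 164 is below that rate.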

How the results depend on the processing

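Members past the adjusted threshold numbered 0 in all 10 comparisons under every alternative, including each library left out in turn, and the lowest adjusted p of any named member under any of them was 0.0978. Counts over all genes moved more: DESeq2 called 12 genes in HFD vs CD, 4 in CDmetf vs CD, 54 for diet averaged over metformin, 4 for the interaction, 22 for male vs female, 2 for sex by diet and 9 for sex by metformin, and limma-voom called 4 for averaged diet. With no filter on low counts there were 2 for averaged diet, 15 for male vs female, 1 for sex by diet and 4 for sex by metformin. For male vs female there were 8 without HFD F2 and HFD M2 and 7 with the epithelial score, in place of 1. Leaving out single libraries gave 0 to 8 for male vs female (0 without CDmetf M1) and 0 to 6 for averaged diet (6 without CDmetf F1 or HFD M2).

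None of the values that turned direction was past the threshold. Cyp3a11 in HFDmetf vs CDmetf was -0.044 with limma-voom, -0.18 with the proximal-minus-distal score and -0.018 with the adipocyte score, and between -0.13 and 1.58 with libraries left out. Gsta1 in HFDmetf vs HFD was 0.54 with limma-voom, 0.0013 with 12 libraries, 0.13 without the 2 libraries above, 0.23 with the epithelial and 0.17 with the smooth muscle score, and between -0.31 and 0.19 with libraries left out. Gsta1 ran from -0.66 to 0.018 in HFD vs CD and from -0.35 to 0.31 in CDmetf vs CD, both upper ends without CD F3. With the smooth muscle score, Cyp3a11 and Cyp2b10 in HFD vs CD were -0.069 and -0.26 and Cyp2b10 in HFDmetf vs HFD was 0.23. The cause was not tested.

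Without the replicate block, 0 members passed in any comparison, and members at an unadjusted p under 0.05 numbered 8 rather than 12 for averaged diet, 3 rather than 5 for averaged metformin, 0 rather than 1 in CDmetf vs CD and for the interaction, but 4 rather than 3 for male vs female and 7 rather than 5 for sex by metformin; over all genes the share for averaged diet was 4.52% rather than 5.95%. Deviations from the group means correlated with a mean of 0.137 over 72 pairs of libraries with the same number (39 over 0.1), 0.182 over 36 pairs with the same sex and number (24 over 0.1) and -0.068 over 144 pairs with different numbers (34 over 0.1). Since not every pair passed 0.1, the number is a block term after the study's methods, and the pairs counted in the text are matched by label only.

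With at least 10 counts in every library, 27 rather than 48 members could be tested, and 5 of them had an unadjusted p under 0.05 for averaged diet (6.62% of all genes).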
